A study of Mus musculus with 12 samples.

Results

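The genes described here encode parts, assembly factors or regulators of the motile cilium, the beating hair of ependymal cells, which line the brain ventricles. They were chosen by name: protein-coding rows of the count table whose mouse symbol starts with Cfap, Dnah, Dnai, Rsph or Drc and a digit, and 6 genes named singly, Foxj1, Ccdc39, Ccdc40, Mapk15, Ccdc153 and Tmem212. This gave 63 genes of the 56748 rows: 31 Cfap, 15 Dnah, 8 Rsph and 3 Drc genes, the 6 named singly, and 0 Dnai genes. Of the 63 genes, 59 passed the filter on low counts and were tested, among 17995 tested genes in all. The other 4 were Cfap221, Rsph6a, Rsph14 and Cfap97d1. Cfap221 had 0.164 to 0.717 CPM in the 12 libraries, and Cfap97d1 was at 0 counts in 6 of them. CPM are read counts scaled to the library size, with a correction for composition.

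RNA sequencing of mouse brain, described for the series as adult forebrain, was given for 12 libraries, 3 in each of 4 groups. The groups were htr_V (Notch conditional knockout with prenatal valproic acid), WT_V (wildtype with prenatal valproic acid), htr (the knockout without valproic acid) and WT (wildtype without it). The knockout is labelled htr3a Notch KO. Valproic acid is an antiepileptic drug that also inhibits histone deacetylases. The sources used here name neither the deleted Notch gene nor its Cre driver, and give no dose, day of exposure, sex or exact age. Nothing in the labels says that the libraries came from separate animals, so the p-values measure the spread between these libraries, which may be technical.

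Total counts ranged from 16887885 to 24944681 per library, and mitochondrial genes held 12.2% to 18.6% of them. The highest share, 18.6%, was in htr_V replicate 1, which also had the lowest factor of the correction for composition, 0.93. Notch1, Notch2, Notch3 and Notch4, the receptor genes, did not pass the test between htr and WT (edgeR adjusted p = 1 for each), with Notch1 at 16.4 to 17.6 CPM in htr and 16.6 to 20.0 CPM in WT. Htr3a, the serotonin receptor subunit gene in the label, was at 9.41 to 10.6 CPM in htr and 3.42 to 4.91 CPM in WT (log2 fold change 1.25, edgeR adjusted p = 5.34e-05). Xist, the RNA of the inactive X chromosome, had 6 counts in htr_V replicate 3 and 12 in WT_V replicate 3, against 5919 to 10767 in the other 10 libraries. Both of these libraries are in valproic acid groups. WT replicate 3 stood apart for the cilia genes. It had the highest level within WT for 35 of the 59 tested members, against 36.5% of all tested genes.

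A motile cilium is built on a ring of doublet microtubules around a central pair of single ones. Dynein arms, motors made around large heavy chains, walk along the neighbouring doublet and bend the cilium, while radial spokes, the central pair apparatus and the nexin-dynein regulatory complex set where and when they act. A ruler of Ccdc39 and Ccdc40 spaces these parts along the doublet. In ependyma, tufts of such cilia move cerebrospinal fluid, and the forkhead factor Foxj1 and the RFX factors switch on their genes. Epithelial cells of the choroid plexus, which secrete that fluid, also carry tufts of cilia, and sperm tails share most axonemal parts.

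The cilia genes were weakly expressed in these libraries. The mean level of the tested members over the 12 libraries had a median of 3.16 CPM, against 13.4 CPM for all tested genes. Means were at least 10 CPM for 8 members and under 1 CPM for 9. In bulk tissue, fewer cells of a type and less RNA per cell cannot be told apart.

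Levels of different genes are compared per kilobase of exon. Cfap36 was the highest, at 31.0 CPM per kb. It encodes a protein that binds the small GTPase Arl3 and is made in many cell types. Next came the spoke head gene Rsph9 (7.35 CPM per kb), Cfap20 (7.20 CPM per kb), a protein of the inner junction of the doublet that is made widely, and Cfap298 (6.16 CPM per kb), needed to assemble dynein arms. Drc1 (5.57 CPM per kb), at the base of the regulatory complex, Foxj1 (4.80 CPM per kb) and the spoke head gene Rsph1 (4.57 CPM per kb) followed. The median of the tested members was 0.585 CPM per kb. Cfap36, Cfap20 and Cfap97 together held 36.1% of all counts of the members, so a sum over the members leans on these 3 genes.

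**Figure D1:**
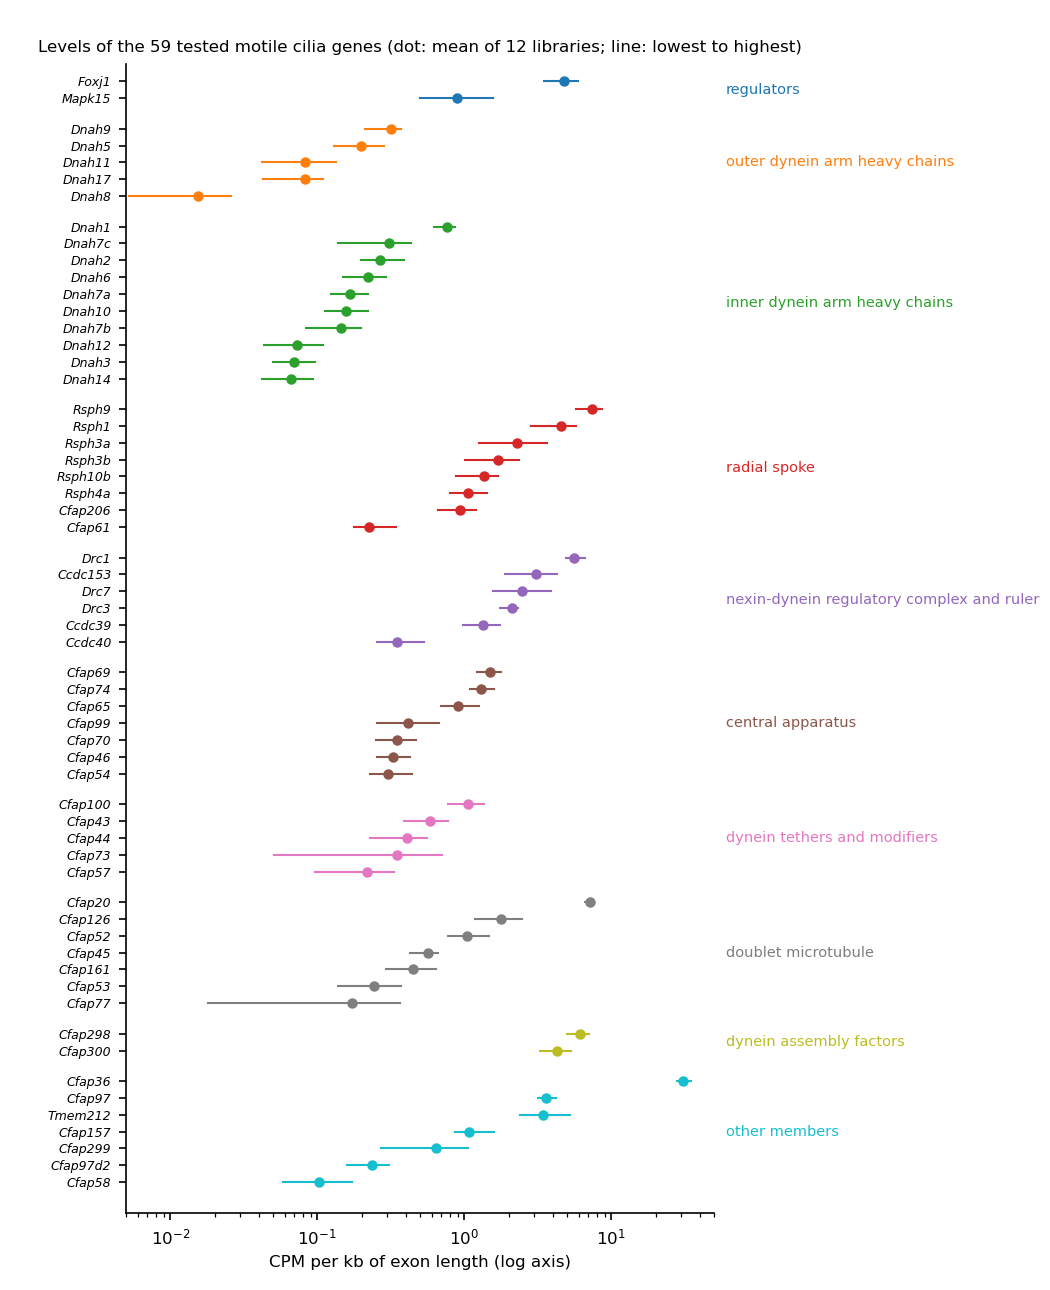
Level of each of the 59 tested motile cilia genes in CPM per kb of exon length (log axis), grouped by the part of the cilium. Dots are means of 12 libraries and lines run from the lowest to the highest library. Dynein heavy chains run from Dnah8 at 0.0154 to Dnah1 at 0.761 CPM per kb, and Cfap36 stands above all others at 31.0 CPM per kb.

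The heavy chains of the outer dynein arm differed in level. Dnah9 was at 0.319 and Dnah5 at 0.199 CPM per kb, while Dnah11 and Dnah17, also outer arm chains, were at 0.0830 and 0.0824 CPM per kb. Dnah8, an outer arm chain known mostly from sperm, was at 0.0154 CPM per kb. Among inner arm chains Dnah1 was the highest, at 0.761 CPM per kb. Per-kb values of genes with very long transcripts depend on the annotated exon length.

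Ependymal markers that are not part of the axoneme were read beside the members. Rarres2 (chemerin) was at 4.57 to 8.46 CPM, Calml4 at 4.38 to 8.43 CPM and Hdc at 1.80 to 3.39 CPM over the 12 libraries. Cd24a was at 7.95 to 15.2 CPM, Vim at 39.1 to 49.5 CPM and S100b at 206 to 284 CPM. Mia was at 0 counts in 8 libraries. Of the male germ cell markers, Tnp1, Prm2 and Pgk2 had 0 counts in all 12 libraries, and Tnp2, Prm1, Acrv1 and Ldhc had at most 11 counts over all 12. Ddx4, the 1 germ cell marker of 8 that passed the filter, was at 1.32 to 3.03 CPM and at 0 in no library. Bulk counts do not show which cells the RNA of the members came from.

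Some values are uncertain because of how genes share sequence. Rsph3a and Rsph3b, and Dnah7a, Dnah7b and Dnah7c, are near-identical copies among which counting may split reads. The strand setting of the counting is not given, so reads of genes on opposite strands cannot be told apart. For Cfap298, 44.2% of the exon length overlaps an opposite-strand gene, Gm49727, and for Ccdc39, 16.9% overlaps Ttc14. Over the 12 libraries Gm49727 had 128 counts against 2513 for Cfap298, and Ttc14 had 15376 against 2546 for Ccdc39. Other members share fewer bases with genes that had more counts than they did. Among these are Cfap97 with Snx25 (11631 against 4814 counts), Dnah17 with Pgs1 (21937 against 341) and Dnah3 with Lyrm1 (1995 against 256). Symbols came from an annotation in which the outer arm intermediate chains are still called Dnaic1 and Dnaic2. These and 3 other genes that carry a Cfap or Dnai name only in RefSeq were tested beside the members, and 0 of the 5 passed in any comparison.

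Binding motifs of the regulators were looked for in promoters, since RFX factors bind an X-box and Foxj1 a forkhead site. RefSeq promoters (build GRCm38.p6, 250 bases before to 50 after the start) were at hand for 51 members and for 27025 genes in all. The letters GTTGCC, an arm of the X-box, were in the promoter of 17 of 51 members (33.3%) on either strand, against 14.1% of all genes. The X-box with both arms, searched as GTTNCC, 0 to 3 bases, and GGNAAC, was in 1 member (1.96%), Cfap298, against 0.936% of all genes. It contains GTTGCC or its complement where a free letter completes one of them. The forkhead core GTAAACA was in 3 members (5.88%), Cfap20, Cfap43 and Dnah17, against 4.05% of all genes. A match is a run of letters and not a bound site.

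Matches are printed for 7 of the 17 members with GTTGCC, those taken by the rule for naming genes, which goes by symbol, level and p-value. They are given on the gene's strand, 5′ to 3′, with GTTGCC or its complement GGCAAC in capitals, so that the bases around each match can be compared. Cfap298 is shown by the match with both arms farther from the start as well as the nearer one, and Dnah10 by the earlier of its 2 matches.
Ccdc153: gagttttccaGTTGCCtggacaacgt
Cfap20: atagtcccttGGCAACcaagttccgc
Cfap298, nearer: atgtttgactGTTGCCcctggcaaca
Cfap298, farther: ttgggttttgGTTGCCcgggcaacag
Cfap100: tgtgagaataGTTGCCttggcgtcgc
Dnah10: cgctggcgccGTTGCCcaggtccccg
Dnah7b: caggagcacaGTTGCCacccaccctt
Drc1: gctttcccttGGCAACggcttgttcc
They lie at chr9:44240515-44240540 (plus strand), chr8:95434948-95434973 (minus), chr16:90934903-90934928 (minus), chr16:90935022-90935047 (minus), chr6:90428456-90428481 (minus), chr5:124725055-124725080 (plus), chr1:46066680-46066705 (plus) and chr5:30281372-30281397 (plus) of GRCm38.p6, in the order above. The matched letters begin 152 bases before the start of Ccdc153, 94 before that of Cfap20, and 69 and 188 before that of Cfap298. In Cfap298 the capitals are followed by 3 bases in the nearer match and 2 in the farther one, and then by the other arm, ggcaac. In Drc1 they begin 11 bases before the start.

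The effect of valproic acid in the knockout was asked by comparing htr_V with htr. Of the 59 tested members, 45 had a higher fitted level in htr_V and 14 a lower one, with a median log2 fold change of 0.21 against 0.01 for all 17995 tested genes. No member passed the test (edgeR quasi-likelihood, Benjamini-Hochberg adjustment over all tested genes, threshold 0.05), as against 0.0556% of all tested genes, which is 10 genes. The smallest adjusted p of a member was 0.0593, for Cfap65. Below an unadjusted p of 0.05 there were 8 members higher and 3 lower, 11 of 59 in all, against 14.9% of all tested genes. Without both libraries that lack Xist, 4 were higher and 2 lower at that threshold, and the share of all tested genes was not computed there. DESeq2's Wald test called 1 member, Cfap65, and limma-voom called 0. The median log2 fold change was 0.14 without htr replicate 1, 0.16 without htr_V replicate 2 and 0.16 by limma-voom.

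In 12 of 59 members (20.3%) each htr_V library lay above each htr library, against 9.88% of all tested genes. They were Cfap74, Cfap298, Drc7, Cfap65, Rsph1, Dnah5, Dnah7b, Dnah10, Cfap52, Mapk15, Cfap161 and Cfap53. Dnah7b is counted apart from its near copies Dnah7a and Dnah7c, among which counting may split reads. In 2 members (3.39%), Cfap36 and Cfap300, each htr_V library lay below each htr library, against 10.3% of all tested genes. Set against the other 9 libraries together, the 3 htr_V libraries were the highest for 5 of 59 members, Drc7, Cfap65, Dnah7b, Dnah10 and Cfap53, against 1.18% of all tested genes, and the lowest for 0, against 1.23%. Dnah7b is again counted apart from its copies. These counts describe the libraries.

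The same question in wildtype, WT_V against WT, gave 32 tested members higher and 27 lower, with a median log2 fold change of 0.02 against 0.01 for all tested genes. No member passed the test (edgeR, smallest adjusted p 0.17), as against 0.895% of all tested genes, and DESeq2's Wald test and limma-voom also called 0. Below an unadjusted p of 0.05, 1 member was higher and 2 lower, against 14.2% of all tested genes. Groups did not overlap for 2 members that were higher, Cfap65 and Mapk15, against 9.84% of all tested genes, and for 1 that was lower, Cfap36, against 10.9%. The median depends on WT replicate 3: without it the median log2 fold change was 0.14. It was -0.06 without WT replicate 1, -0.01 without WT replicate 2 and -0.01 without WT_V replicate 3.

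Without valproic acid, htr against WT, 27 tested members were higher in htr and 32 lower, with a median log2 fold change of -0.02 (0.00 for all tested genes). No member passed the test by edgeR (each adjusted p = 1), DESeq2 or limma-voom, as against 0.0389% of all tested genes by edgeR. At an unadjusted p under 0.05 there were 0 members, against 3.13% of all tested genes. Groups did not overlap for Cfap100, higher in htr (3.58% of all tested genes), and for Cfap52 and Dnah7a, lower in htr (3.81%). Leaving out single libraries moved the median. It was 0.09 without WT replicate 3, 0.01 without htr replicate 1, -0.10 without WT replicate 1, -0.05 without htr replicate 3, -0.04 without WT replicate 2 and -0.03 without htr replicate 2.

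With valproic acid in both groups, htr_V against WT_V, 42 tested members were higher in htr_V and 17 lower, with a median log2 fold change of 0.12 (0.00 for all tested genes). No member passed the test by edgeR (smallest adjusted p 0.41), DESeq2 or limma-voom, as against 0.05% of all tested genes by edgeR. At an unadjusted p under 0.05, 5 members were higher and 0 lower, against 7.44% of all tested genes. Without both libraries that lack Xist 3 were higher, and the share of all tested genes was not computed there. Each htr_V library lay above each WT_V library for 9 members (15.3%), Foxj1, Drc7, Cfap65, Rsph1, Dnah5, Dnah7b, Dnah10, Cfap53 and Cfap77, against 6.96% of all tested genes. The opposite order was seen for 0 members, against 6.23% of all tested genes. Dnah7b is counted here apart from its near copies, among which counting may split reads. This comparison shares the htr_V libraries with the comparison of htr_V and htr.

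Whether valproic acid acted differently in the knockout was tested by the interaction, the log2 fold change of htr_V over htr minus that of WT_V over WT. It was above 0 for 41 tested members and below 0 for 18, with a median of 0.16 (0.00 for all tested genes). No member passed by edgeR (smallest adjusted p 0.833), DESeq2 or limma-voom, and 0% of all tested genes did by edgeR. At an unadjusted p under 0.05 there were 2 members, Cfap298 and Drc7, against 5.97% of all tested genes. A difference between the genotypes in the effect of valproic acid on these genes was therefore not detected. The 95% intervals of the interaction stayed within 1 log2 unit of 0 for 36 of the 59 members, and reached further for the others.

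**Figure D2:**
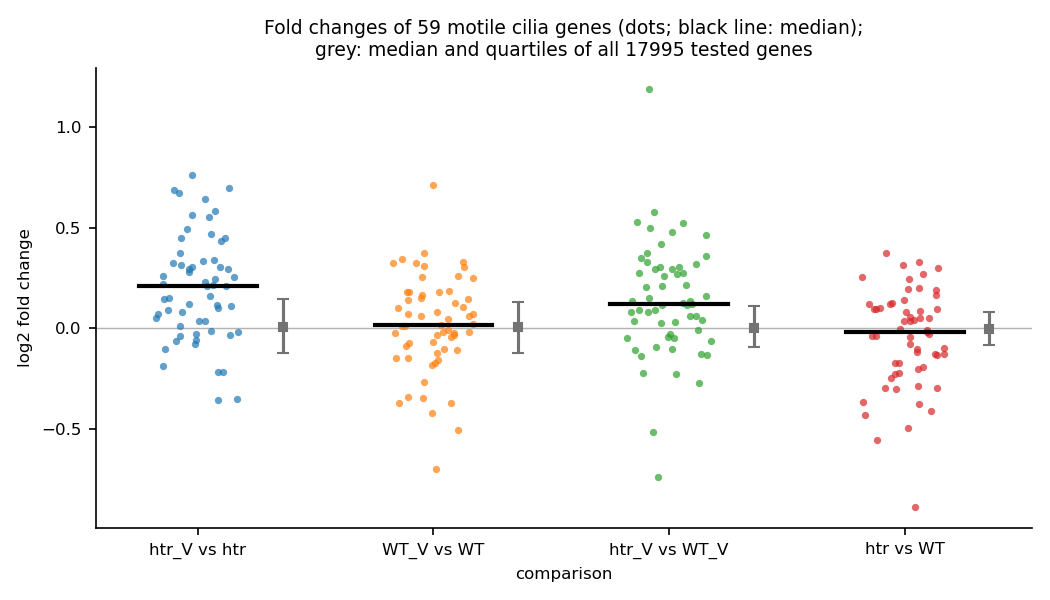
Log2 fold change of the 59 tested motile cilia genes in 4 comparisons, with the first named group over the second. Dots are genes, black lines their medians (0.21, 0.02, 0.12 and -0.02, left to right), and grey squares with bars are the median and quartiles of all 17995 tested genes.

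Foxj1, on chromosome 11, encodes the forkhead factor of motile cilia. It had 14.7, 14.2 and 15.2 CPM in htr_V, 11.8, 12.1 and 11.4 CPM in WT_V, 12.5, 9.18 and 14.2 CPM in htr, and 9.89, 10.2 and 15.6 CPM in WT. The htr_V libraries were above each WT_V library. They overlapped htr, where replicate 3 lay within their range, and WT, where replicate 3 was the highest of all 12. The log2 fold change was 0.31 ± 0.16 (SE) in htr_V over htr (95% interval -0.03 to 0.64) and 0.32 in htr_V over WT_V, with edgeR adjusted p of 0.377 and 0.679.

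Mapk15 encodes an atypical MAP kinase found at basal bodies. It had 4.03, 2.54 and 2.77 CPM in htr_V, 2.51, 2.74 and 2.39 CPM in WT_V, 1.51, 2.12 and 2.15 CPM in htr, and 1.29, 1.38 and 1.997 CPM in WT. Each library with valproic acid lay above each library without it, as for Cfap65; these 2 members compare with 1.07% of all tested genes. The log2 fold change was 0.69 (95% interval 0.18 to 1.19) in htr_V over htr and 0.71 (0.20 to 1.22) in WT_V over WT, and neither passed (edgeR adjusted p = 0.188 and 0.17). The interaction was -0.02 (95% interval -0.73 to 0.69).

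Cfap65, a protein of the central apparatus, came nearest to the threshold. It had 9.82, 8.81 and 8.65 CPM in htr_V, 7.61, 7.03 and 7.44 CPM in WT_V, 5.65, 5.45 and 6.39 CPM in htr, and 5.63, 6.89 and 5.95 CPM in WT. The 3 htr_V libraries were the highest of the 12, the WT_V libraries came next, and htr and WT overlapped. The log2 fold change in htr_V over htr was 0.64 ± 0.14 (SE), with an unadjusted p of 8.18e-05 and an edgeR adjusted p of 0.0593. The adjusted p was 0.0158 by DESeq2's Wald test, 0.0119 without a count filter, 0.0423 without WT replicate 3 and 0.0326 without WT_V replicate 3. It missed the threshold in the other alternatives run, the highest being 0.241 without htr_V replicate 1, 0.195 with a term for the libraries lacking Xist and 0.141 without htr_V replicate 3. In WT_V over WT the log2 fold change was 0.26 (95% interval -0.02 to 0.54), and the interaction was 0.38 (-0.02 to 0.78).

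The remaining tested members grouped as central apparatus genes were Cfap46, Cfap54, Cfap69, Cfap70, Cfap74 and Cfap99. Of the 7 with Cfap65, 6 had a higher fitted level in htr_V than in htr and 1 a lower one, with a median log2 fold change of 0.26. Cfap74 had 15.9, 13.03 and 14.5 CPM in htr_V against 12.1, 12.7 and 12.4 CPM in htr. Its groups did not overlap and it did not pass the test.

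Drc7, on chromosome 8, encodes a linker protein of the nexin-dynein regulatory complex. It had 9.03, 11.7 and 8.83 CPM in htr_V, 5.95, 6.26 and 7.64 CPM in WT_V, 6.87, 7.20 and 5.85 CPM in htr, and 4.66, 7.44 and 6.86 CPM in WT. The 3 htr_V libraries were above all the other 9. The log2 fold change was 0.56 ± 0.17 (SE) in htr_V over htr (edgeR adjusted p = 0.128) and 0.58 ± 0.17 in htr_V over WT_V (edgeR adjusted p = 0.41), and 0.07 in WT_V over WT. The 250 bases before its start, at chr8:95054853-95055102 (plus strand, GRCm38.p6), hold 46.4% G and C and 3 CG pairs. They are printed because this gene had the smallest p-value of a member in htr_V over WT_V.
Drc7: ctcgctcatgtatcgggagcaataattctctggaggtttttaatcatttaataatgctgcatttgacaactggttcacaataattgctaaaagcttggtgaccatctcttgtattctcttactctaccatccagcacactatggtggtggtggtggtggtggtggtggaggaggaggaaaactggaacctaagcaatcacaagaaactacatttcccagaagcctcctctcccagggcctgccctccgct
None of the 3 motifs was found in its promoter.

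The other members of the regulatory complex and ruler showed no such order. Drc1 was at 14.6 to 16.5 CPM in htr_V and 13.1 to 16.3 CPM in htr, and Drc3, another subunit, at 9.05 to 9.94 CPM in htr_V and 8.91 to 10.2 CPM in htr. The ruler gene Ccdc39 was at 8.74 to 11.5 CPM in htr_V, 9.77 to 11.4 CPM in WT_V, 8.75 to 13.01 CPM in htr and 7.28 to 11.5 CPM in WT. Its partner Ccdc40 was at 1.53 to 2.38 CPM in htr_V, 1.86 to 2.45 CPM in WT_V, 1.62 to 2.57 CPM in htr and 1.82 to 3.21 CPM in WT. Groups overlapped for all 4 of these genes in each comparison.

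Ccdc153, a coiled-coil protein gene used as an ependymal marker, had 8.52, 5.84 and 7.56 CPM in htr_V, 4.66, 6.66 and 6.42 CPM in WT_V, 6.45, 5.81 and 7.41 CPM in htr, and 3.90, 3.86 and 8.64 CPM in WT. The spread within WT, where replicate 3 had more than the sum of the other 2, was wider than the differences between the group means. Tmem212, a membrane protein gene that also marks ependyma, had 3.75, 2.49 and 3.03 CPM in htr_V, 1.74, 1.80 and 2.95 CPM in WT_V, 2.49, 1.89 and 2.39 CPM in htr, and 1.73, 1.82 and 3.65 CPM in WT. Again WT replicate 3 was well above the other WT libraries, and the groups overlapped in each comparison. The log2 fold change of Tmem212 in htr_V over htr was 0.45 (95% interval -0.13 to 1.03).

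**Figure D3:**
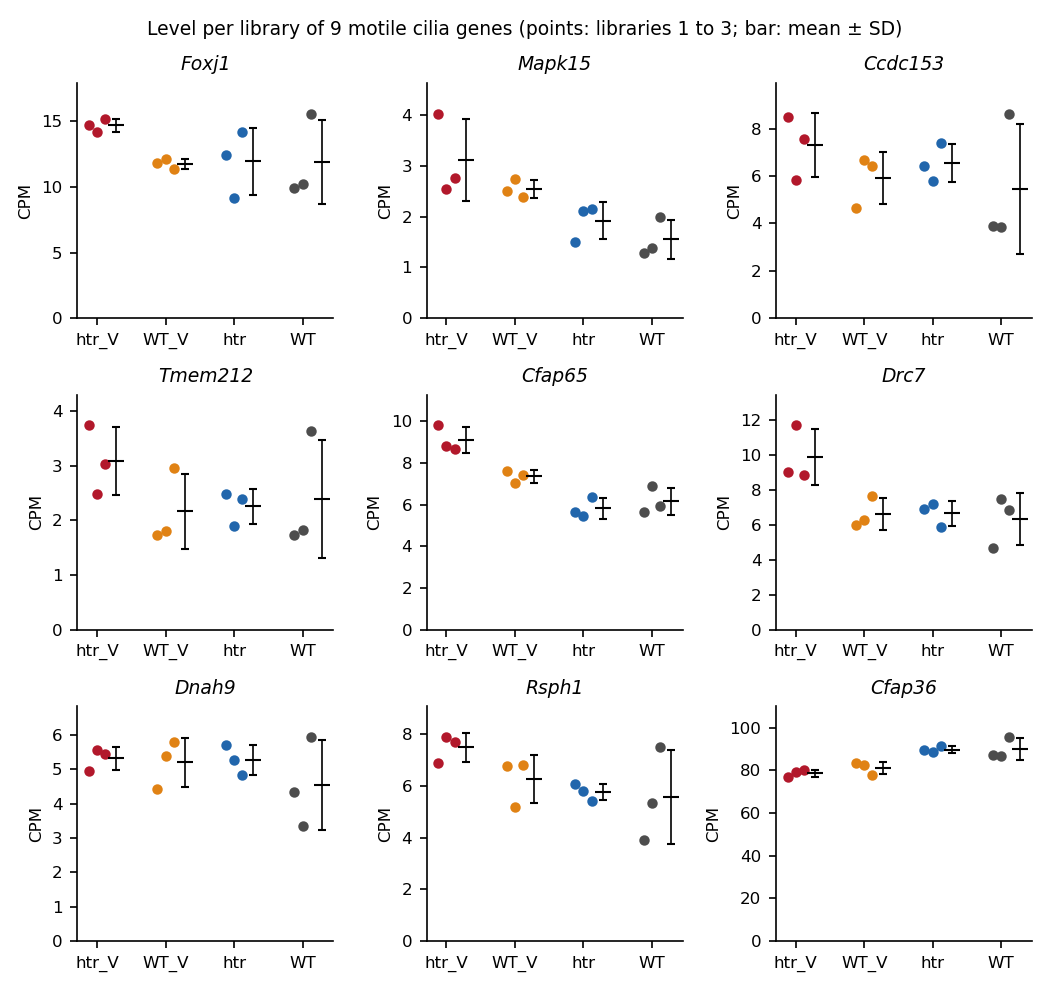
Level of 9 motile cilia genes in CPM in each library (points) with the mean ± SD of each group (bars), in the order htr_V, WT_V, htr and WT. Cfap65 and Drc7 are highest in the 3 htr_V libraries, Mapk15 is higher in all libraries with valproic acid, and WT replicate 3 is the highest WT library for Foxj1, Ccdc153 and Tmem212.

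No dynein heavy chain passed the test. Of the 5 tested outer arm chains, 4 had a higher fitted level in htr_V than in htr, with a median log2 fold change of 0.30, and 0 passed. Dnah9 had 4.94, 5.56 and 5.45 CPM in htr_V, 4.41, 5.40 and 5.81 CPM in WT_V, 5.69, 5.27 and 4.84 CPM in htr, and 4.34, 3.36 and 5.95 CPM in WT, and its groups overlapped. Dnah5 had 3.69, 3.40 and 4.04 CPM in htr_V against 3.15, 2.34 and 2.39 CPM in htr (log2 fold change 0.50, edgeR adjusted p = 0.328). Dnah11 was at 0.613 to 1.17 CPM in WT_V and 1.10 to 1.95 CPM in WT (log2 fold change -0.70, 95% interval -1.37 to -0.03, edgeR adjusted p = 0.324), with groups that overlapped.

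Of the 10 tested inner arm chains, 9 had a higher fitted level in htr_V than in htr, with a median log2 fold change of 0.24. Dnah10, a chain of the double-headed inner arm, had 3.58, 2.78 and 3.08 CPM in htr_V, 2.15, 2.37 and 1.99 CPM in WT_V, 2.54, 2.30 and 2.69 CPM in htr, and 1.81, 2.59 and 2.21 CPM in WT. Each of its htr_V libraries was above each other library. Dnah7b, a chain of a single-headed arm, had 3.58, 3.98 and 3.95 CPM in htr_V, 2.92, 2.49 and 2.85 CPM in WT_V, 2.68, 2.79 and 2.87 CPM in htr, and 1.69, 2.48 and 2.78 CPM in WT, and was likewise highest in htr_V. Its log2 fold change was 0.47 in htr_V over htr and 0.48 in htr_V over WT_V (edgeR adjusted p = 0.27 and 0.576). Its copies Dnah7a and Dnah7c did not show this order, with Dnah7c at 2.64 to 5.41 CPM in htr_V and 1.73 to 4.19 CPM in htr. Counting may split reads among these copies, so the order of Dnah7b alone is uncertain. Each copy counts as a member of its own in every tally here. Dnah1 was at 9.49 to 10.5 CPM in htr_V and 8.18 to 9.86 CPM in htr, and Dnah2, the partner chain of Dnah10, at 3.55 to 5.85 CPM in htr_V and 3.69 to 4.48 CPM in htr.

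Radial spoke genes were mixed. Rsph1 had 6.87, 7.90 and 7.69 CPM in htr_V, 6.76, 5.19 and 6.83 CPM in WT_V, 6.07, 5.81 and 5.44 CPM in htr, and 3.90, 5.35 and 7.51 CPM in WT. Its htr_V libraries were above each WT_V and each htr library, and WT replicate 3 lay among them. Rsph9 was at 12.4 to 12.8 CPM in htr_V and 9.98 to 12.96 CPM in htr. Rsph3a, a spoke stalk gene with a near copy, was at 4.22 to 6.90 CPM in htr_V, 3.82 to 9.81 CPM in WT_V, 5.51 to 7.88 CPM in htr and 6.91 to 11.1 CPM in WT. Of the 8 tested members grouped as spoke genes, 5 had a higher and 3 a lower fitted level in htr_V than in htr.

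Proteins inside the doublet microtubule had the largest median of a role in htr_V over htr, a log2 fold change of 0.55 over 7 members, and 0 of them passed. Cfap161 had 1.76, 2.06 and 1.93 CPM in htr_V against 1.37, 0.945 and 1.08 CPM in htr (log2 fold change 0.76, edgeR adjusted p = 0.205). Cfap52 had 2.56, 2.64 and 3.43 CPM in htr_V against 2.02, 1.80 and 2.09 CPM in htr (log2 fold change 0.55, edgeR adjusted p = 0.235). Cfap126, named Flattop for its part in placing basal bodies, was at 2.90 to 4.41 CPM in htr_V, 2.11 to 3.36 CPM in WT_V, 2.49 to 3.58 CPM in htr and 2.43 to 4.21 CPM in WT. Cfap20 hardly varied, at 29.5 to 33.9 CPM in htr_V, 30.1 to 31.1 CPM in WT_V, 33.0 to 33.8 CPM in htr and 31.1 to 33.6 CPM in WT.

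The 2 tested members grouped as dynein assembly factors differed in direction in htr_V over htr, and neither passed. Further assembly genes are among the other motile cilia genes below. Cfap298, with the full X-box shown above, had 11.01, 9.77 and 11.1 CPM in htr_V against 9.65, 7.97 and 8.36 CPM in htr (log2 fold change 0.30, edgeR adjusted p = 0.302). It was at 8.35 to 11.3 CPM in WT_V and 9.16 to 10.9 CPM in WT, and its interaction was 0.40 (95% interval 0.01 to 0.79, edgeR adjusted p = 0.833). Cfap300 had 5.22, 6.71 and 6.11 CPM in htr_V against 7.11, 8.06 and 7.94 CPM in htr (log2 fold change -0.35, edgeR adjusted p = 0.269). Cfap100, grouped here with tethers and modifiers of dynein arms, was at 4.36 to 4.86 CPM in htr and 3.18 to 4.19 CPM in WT. These groups did not overlap (log2 fold change 0.33, edgeR adjusted p = 1).

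Cfap36, the most abundant member, had the opposite order. It had 76.98, 79.04 and 80.2 CPM in htr_V, 83.5, 82.3 and 78.0 CPM in WT_V, 89.4, 88.4 and 91.4 CPM in htr, and 87.4, 86.9 and 95.8 CPM in WT. Each library with valproic acid was below each library without it, in this 1 member and in 2.07% of all tested genes. The log2 fold change was -0.19 (95% interval -0.32 to -0.06) in htr_V over htr and -0.15 (-0.28 to -0.02) in WT_V over WT, with edgeR adjusted p of 0.172 and 0.279. Cfap97, whose fly relative hemingway acts in cilia, was at 16.5 to 17.6 CPM in htr_V and 17.1 to 21.7 CPM in htr (log2 fold change -0.22, edgeR adjusted p = 0.318).

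The level of the whole set in each library was summarised by the mean log2 CPM of the 59 tested members. It was 1.91, 1.84 and 1.81 in htr_V, 1.68, 1.72 and 1.78 in WT_V, 1.56, 1.69 and 1.73 in htr, and 1.54, 1.60 and 1.91 in WT. The 3 htr_V libraries lay above each WT_V and htr library, and WT replicate 3 was the highest of the 12. Summed over all 63 members, the level was 385 to 392 CPM in htr_V, 362 to 375 CPM in WT_V, 367 to 384 CPM in htr and 344 to 406 CPM in WT, where the same order of htr_V over WT_V and htr held and WT again spanned the other groups. No test was made of these sums.

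The other genes of motile cilia, those the name rule does not match, were read beside them. Of 82 listed, 77 were tested and 0 passed in any comparison. Their median log2 fold change was 0.14 in htr_V over htr, -0.06 in WT_V over WT, -0.02 in htr over WT and 0.11 in htr_V over WT_V. At an unadjusted p under 0.05, 6 were higher and 0 lower in htr_V than in htr, against 14.9% of all tested genes in either direction. In htr_V against WT_V, 8 were higher and 0 lower (7.44% of all tested genes), and in WT_V against WT, 2 were higher and 4 lower (14.2%). Each htr_V library lay above each htr library for 9 of the 77 (11.7%), against 9.88% of all tested genes. The reverse held for 1 (1.3%), against 10.3%. Against WT_V the htr_V libraries were all higher for 11 (14.3%), against 6.96% of all tested genes, and all lower for 0, against 6.23%. Abundant genes of this list were Dnal1, a light chain of the outer arm, Tppp3, a tubulin-binding protein, and Rfx3, an X-box factor of ciliated cells. Their log2 fold changes in htr_V over htr were 0.01, 0.06 and -0.04. Gmnc and Trp73, which set off the formation of multiciliated cells, had log2 fold changes of 0.96 and 0.82 in htr_V over htr (edgeR adjusted p = 0.18 and 0.157). They were singled out after their values were seen, from 77 genes whose log2 fold changes ran from -0.65 to 0.96. Gmnc had the largest of these and Trp73 the smallest adjusted p. Other listed genes of this step are not described here. Genes of the primary cilium, the single cilium of most cells, had medians of -0.02 in htr_V over htr and -0.03 in htr_V over WT_V over 49 genes, with 0 passing.

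Markers of the choroid plexus epithelium were also high in the htr_V libraries. All 16 had a higher fitted level in htr_V than in htr, with a median log2 fold change of 0.62. At an unadjusted p under 0.05 there were 15, against 14.9% of all tested genes, and after adjustment 0, against 0.0556%. Against WT_V the median was also 0.62, and 1 of 16, the tight junction gene Cldn2, passed (edgeR adjusted p = 0.0431). Of all tested genes, 0.05% passed there. Their summed level was 3501 to 4260 CPM in htr_V, 1823 to 3545 CPM in WT_V, 2506 to 2639 CPM in htr and 1844 to 2827 CPM in WT, and none of the markers was at 0 in any library. WT replicate 3, highest for the cilia genes, lay between the other WT libraries for the choroid plexus sum, at 2295 CPM. The part of these markers in the levels of the cilia genes was not tested.

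Other cell types in the tissue were read in the same way. The 10 meningeal fibroblast markers were all higher in htr_V than in htr by the fitted level. Of them 1, Igfbp2, passed (edgeR adjusted p = 0.00384), against 0.0556% of all tested genes. Their sums were 217 to 250 CPM in htr_V, 167 to 234 CPM in WT_V, 156 to 183 CPM in htr and 172 to 194 CPM in WT. The 8 photoreceptor and pineal markers summed to 6.77 to 11.3 CPM in htr_V, 3.93 to 4.50 CPM in WT_V, 3.58 to 4.01 CPM in htr and 3.36 to 3.74 CPM in WT. Of these 8, 4 were tested and 1, Rbp3, passed in htr_V against htr and in htr_V against WT_V (edgeR adjusted p = 0.00177 and 0.000962). Among all tested genes, 0.0556% and 0.05% passed in these comparisons. Rbp3, a retinoid carrier gene, was at 1.53, 2.35 and 1.14 CPM in htr_V, against at most 0.204 CPM in each other library. The 7 ependymal markers that are not axonemal summed to 278 to 358 CPM in htr_V, 273 to 320 CPM in WT_V, 283 to 356 CPM in htr and 292 to 321 CPM in WT, mostly S100b, which astrocytes also make. They overlapped between all groups, and 0 of the 6 tested passed. The 9 striatal neuron markers were lower in WT_V than in WT, 4 of them past the test, against 0.895% of all tested genes. Their sums were 849 to 945 CPM in WT_V and 1408 to 1486 CPM in WT. All 9 were also lower in htr_V than in htr by the fitted level, with a median log2 fold change of -0.38. Of them 5 were at an unadjusted p under 0.05, against 14.9% of all tested genes, and 0 passed the test. Their sums were 841.5 to 1101 CPM in htr_V and 1024 to 1686 CPM in htr. In htr_V against WT_V all 9 were higher by the fitted level, with a median of 0.15 and 0 past the test. The part of any of these in the cilia results was not tested.

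**Figure D4:**
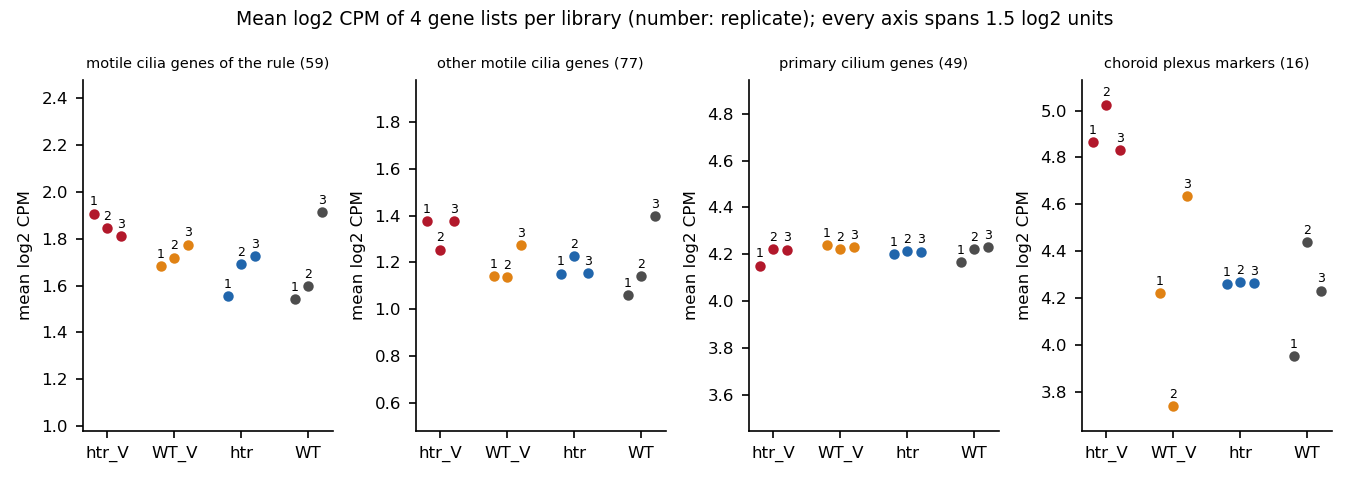
Mean log2 CPM per library of the 59 tested motile cilia genes, 77 other motile cilia genes, 49 primary cilium genes and 16 choroid plexus markers, in the order htr_V, WT_V, htr and WT, with replicate numbers beside the points. WT replicate 3 reaches the htr_V level in both cilia lists, while the choroid plexus markers are highest in the 3 htr_V libraries and the primary cilium genes are level.

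How much change these libraries could have shown differed between members. The median biological coefficient of variation, the spread between replicates beyond counting, was 0.165 over the tested members and 0.0957 over all tested genes. The 95% interval of the log2 fold change stayed within 1 unit of 0 for 45 of the 59 members in htr_V over htr, and for 49 in each of WT_V over WT, htr over WT and htr_V over WT_V. For these members a 2-fold difference in either direction lies outside the interval.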

How the data were processed

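Per the labels' protocols, total RNA of mouse brain was purified on columns, rid of ribosomal RNA and turned into NEBNext Ultra libraries. The submitters' processing notes name HISAT2 and GRCm39 (mm39) without versions; the sources used here give no counting program, annotation or strand setting. The authors deposited raw counts per Ensembl gene for 56748 genes in 12 libraries, with no normalisation. Symbols for 52073 rows came from GENCODE M21 on GRCm38, so chromosomes are given and positions of genes are not; promoters came from RefSeq on GRCm38.p6.

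Counts were analysed in R 4.3.3 with edgeR 4.0.16: filterByExpr by group, TMM factors, and a robust quasi-likelihood fit of 4 group means to all 12 libraries. Tests were two-sided, with Benjamini-Hochberg adjustment across the 17995 genes tested and a threshold of 0.05. Mean log2 CPM used a prior count of 2. Alternatives were DESeq2 1.42.0 (Wald test without independent filtering, and its size factors), limma-voom (limma 3.58.1), upper-quartile factors, other count filters, only the groups compared, the replicate block, a term for libraries lacking Xist, and leaving out libraries. Lead counts without both libraries lacking Xist were chosen after seeing the data. The fit was also run on counts simulated from its own estimated spread. Changed genes were drawn there only from those with a mean of at least 1 CPM. That run therefore does not cover the 9 tested members under 1 CPM or a departure from the model. Figures were made with Python 3.11.15 and matplotlib 3.10.9. Promoter motifs were searched on both strands.

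The members and lists were chosen with earlier results of these data known. Named members were the 6 listed singly, the 3 most abundant of each family, and in each comparison any that passed and the 4 with the smallest p; others were named after their values were seen, mostly for libraries that did not overlap. A gene that the naming rule takes is not reported here.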

Additional observations from a re-analysis of the deposited data

How the results depend on the processing

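Of the values that answer a comparison, 340 under an alternative kept their direction and side of the threshold or stayed within the spread, 7 moved and 4 gained calls. Of the single-gene values, 431 kept both and 5 became called. The number of members called in htr_V against htr, 0 in the main test, was 1 by DESeq2's Wald test and 2 without a low-count filter, and 0 to 1 when each library was left out in turn; why DESeq2 and the missing filter changed the call was not tested. The called member was Cfap65, joined without a filter by Drc7 (adjusted p = 0.0333). Calls changed with WT or WT_V replicate 3 left out although neither library is in that comparison. All groups share one estimate of the spread, and whether that changed these calls was not tested. Without both libraries lacking Xist, members at an unadjusted p under 0.05 were 4 higher in htr_V than in htr (8 with all libraries), 3 higher in htr_V than in WT_V (5) and 1 lower in WT_V than in WT (2). Members whose groups did not overlap were then 17 higher and 2 lower in htr_V than in htr (12 and 2), where 14.5% of all tested genes were higher. In htr_V against WT_V they were 18 higher and 2 lower (9 and 0), where 23.2% of all tested genes were higher. In WT_V against WT they were 4 higher and 2 lower (2 and 1), where 16.1% were higher. Smaller groups overlap less often by construction. Shares of all tested genes were not computed in this setting for the lower counts or the counts at an unadjusted p.

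With the replicate number as a block, 0 members were called in each of the 5 comparisons, and the median log2 fold change was 0.20 in htr_V over htr and 0.04 in WT_V over WT. Deviations from the group means of same-numbered libraries correlated at -0.0623 to 0.115. Of the 12 libraries, 7 correlated best with one of their own number. These values do not settle whether the numbers pair the libraries. Depth limits the 9 tested members under 1 CPM and the 4 below the filter most.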
